A study of Mus musculus with 8 samples.

Results

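The insulin-like growth factor (IGF) family was read out as 10 genes: the ligands Igf1 and Igf2, the receptors Igf1r and Igf2r, and the binding protein genes Igfbp2 to Igfbp7. They were taken by symbol from a table of 25509 mouse genes, and all 10 were found once and passed the filter on low counts. RNA came from lung cells of 4 wild-type C57Bl6/J mice, numbered 2, 7, 8 and 10, with no treatment named and no age given in the labels. Cells negative for CD45, CD326 and CD31, surface markers of leukocytes, epithelium and endothelium, were sorted by CD249 into a CD249+ and a CD249- fraction of each lung, which gave 4 libraries of each. CD249 is glutamyl aminopeptidase, the product of Enpep, and its transcript checked the sort at 5.13 to 17.3 CPM (counts scaled by library depth) in CD249- and 175 to 329 CPM in CD249+ libraries.

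IGF1 and IGF2 are secreted growth factors that signal through the tyrosine kinase receptor IGF1R, while IGF2R, the cation-independent mannose 6-phosphate receptor, carries IGF2 to lysosomes for breakdown. Most IGF outside cells is held by the IGF binding proteins, which prolong its life and limit or direct its access to the receptor, and proteases free it again by cutting them. IGFBP7 binds IGFs weakly and is often set apart as a related protein. In lung, mesenchymal cells are a known source of IGF1 for the neighbouring epithelium and macrophages are another.

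Of the 10 genes 7 were higher in CD249+ cells at an adjusted p under 0.05 and 0 were lower, where 16.9% of all 14524 genes tested were higher and 13.9% lower, 30.8% called in all. The test was edgeR's quasi-likelihood test with Benjamini-Hochberg adjustment over all genes tested, and "rose" and "called" mean that a gene passed it. DESeq2 and limma-voom, run on the same 8 libraries, also called 0 of the 10 genes lower at an adjusted p under 0.05. Over all genes they called 2352 of 14486 and 2054 of 14524 lower. The median log2 fold change, CD249+ over CD249-, was 0.93 over the 10 genes and -0.02 over all genes tested. Igfbp3 rose the most, about 21.9-fold, followed by Igf1 at 3.72-fold, Igfbp6 at 2.75-fold, Igfbp5 at 2.17-fold, Igf2 at 2.10-fold, Igf2r at 1.73-fold and Igfbp7 at 1.41-fold. Igf1r, Igfbp4 and Igfbp2 did not pass. The 7 genes that rose were higher in CD249+ cells of all 4 mice, which is read from the same libraries as the calls and is not separate support. In the 4 genes Igf1, Igf2, Igf2r and Igfbp3 every CD249+ library lay above every CD249- library, as in 17.8% of all genes tested, and 0 of the 10 were lower without overlap, as in 15.8% of all genes. Scaling by total count alone shifted the median of all genes to -0.12 and gave 2106 higher and 2690 lower genes in place of 2455 and 2013, and 6 of the 10 genes then rose.

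**Figure D1:**
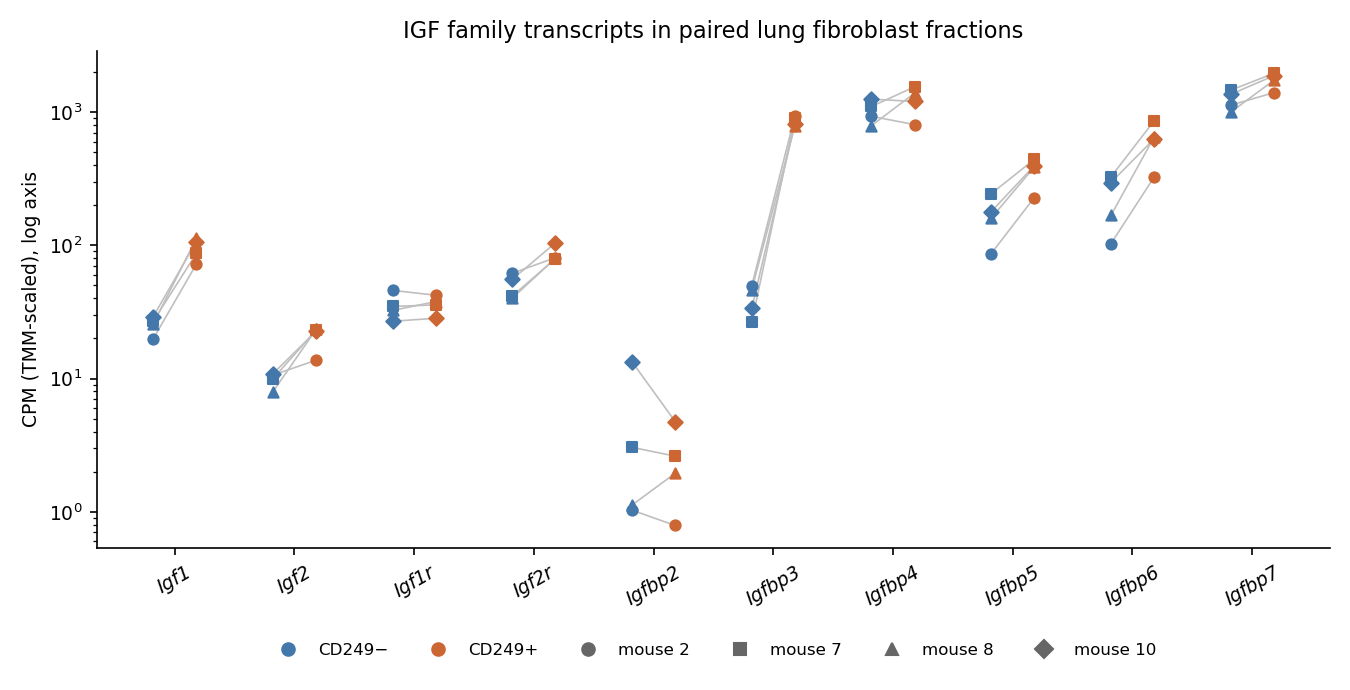
Level of each IGF family gene in the 8 libraries, as CPM with TMM-scaled totals on a log axis, CD249- in blue and CD249+ in orange, with a grey line joining the fractions of 1 mouse. Igfbp3 goes from 26.5 to 49.8 CPM in CD249- libraries to 789 to 930.1 CPM in CD249+ libraries, while the lines of Igf1r are nearly flat and 3 of the 4 lines of Igfbp2 go down.

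The fractions also differed in markers of many cell types. All 14 endothelial genes fell in CD249+ cells, from a summed 15804 to 20621 CPM to 4992 to 9314 CPM. The sort was gated against CD31, yet its gene Pecam1 still stood at 1666 CPM on average in CD249- and 611 CPM in CD249+ libraries. Of 8 fibroblast matrix genes 7 rose, from 5291 to 13061 to 15186 to 27174 CPM in sum, and the level of Col3a1, a fibrillar collagen gene, went from 3184 ± 1173 to 9184 ± 2122 CPM (SD, n = 4). All 9 alveolar fibroblast genes rose, with log2 fold changes from 1.55 for Macf1 to 5.21 for Col13a1. Pericyte and smooth muscle genes rose in 6 of 7 cases each. Adventitial fibroblast genes went both ways, with 2 of 9 higher and 3 lower. Of 5 tested mesothelial genes 4 fell, of 12 tested leukocyte genes 2 fell, and of 10 epithelial genes 3 rose. These 3 were Sftpa1, Sftpb and Sftpc, each by far highest in the CD249+ library of mouse 10. Sftpc stood there at 7547 CPM, against 320 to 781 CPM in the other CD249+ and 58.6 to 448 CPM in CD249- libraries. Red cell genes split the mice rather than the fractions, with a sum of 130 to 511 CPM in libraries of mice 7 and 8 and 12.1 to 27.8 CPM in those of mice 2 and 10. Tested within these pairs of mice, 7 of the IGF genes rose in mice 7 and 8 (Igfbp4 among them and Igfbp7 not), and 2 (Igf1 and Igfbp3) in mice 2 and 10. Calls over all genes were also fewer there, going from 3028 genes (20.5% of those tested, 12% higher and 8.47% lower) in mice 7 and 8 to 668 (4.55%, 3.88% higher and 0.668% lower) in mice 2 and 10. Of 9 immediate early and stress genes 4 rose and 0 fell, with Egr1 at a log2 fold change of 1.44, Fos at 1.10, Junb at 0.99 and Dnajb1 at 0.70. Jun at 0.08, Hspa1b at 0.40, Atf3 at 0.41, Hspa1a at 0.64 and Fosb at 0.88 did not pass. The sum of the 9 genes was 7588 to 12254 CPM in CD249- and 11152 to 24338 CPM in CD249+ libraries. It was highest in mice 7 and 8 in both fractions. No list was at 0 for any defining marker in all libraries. The mean log2 CPM of the endothelial, mesothelial, pericyte, smooth muscle, alveolar and matrix lists gave an exact permutation p = 0.0286 each, the smallest that 4 libraries against 4 can give, and 0.0524 after adjustment over 11 lists. That test shuffles libraries freely and does not use their pairing by mouse. An exact sign-flip test on 4 pairs can give no p below 0.125, and it was not run on the lists. The part of these shifts in the IGF results was not tested. Fewer cells of a type and less RNA per cell cannot be told apart in such samples. Library totals were 23011383 to 31906414 counts, and the 10 genes made up 0.236 to 0.342% of CD249- and 0.389 to 0.560% of CD249+ counts.

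Igf1, the main ligand of IGF1R in adult tissue (ENSMUSG00000020053.18, chromosome 10, 87858265 to 87937042, plus strand, GRCm38), stood at 19.9, 26.9, 25.7 and 29.2 CPM in CD249- libraries of mice 2, 7, 8 and 10. In CD249+ libraries of the same mice it stood at 72.2, 86.8, 113 and 106 CPM. The groups were far apart, and the lowest CD249+ library, that of mouse 2, was still above all CD249- libraries. Igf1 rose from 25.4 ± 3.97 to 94.5 ± 18.5 CPM (SD, n = 4), a log2 fold change of 1.89 (SE 0.17, edgeR adjusted p = 4.19e-05). The difference within single mice ran from 1.69 to 2.13 on the log2 scale, so that the 4 mice gave much the same size.

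Igf2, a growth factor best known from fetal growth and expressed from the paternal allele (ENSMUSG00000048583.16, chromosome 7, 142650766 to 142666816, minus strand), was the less abundant ligand. Its levels were 10.6, 9.98, 7.96 and 10.9 CPM in CD249- libraries of mice 2, 7, 8 and 10 and 13.7, 23.1, 23.3 and 22.6 CPM in CD249+ libraries. Mouse 2 was low in the CD249+ group and the other 3 mice were close together. Igf2 rose from 9.86 ± 1.32 to 20.7 ± 4.65 CPM (SD, n = 4), with a log2 fold change of 1.07 (SE 0.20, edgeR adjusted p = 0.00324), by 0.37 in mouse 2 and by 1.05 to 1.55 in the others. In GENCODE M21 a predicted gene on the same strand, Gm49394, shares 62.8% of the exon length of Igf2 and is not in the count table. H19, the imprinted noncoding RNA gene 72622 bases away that is expressed from the maternal allele, averaged 0.130 CPM in CD249- and 0.0785 CPM in CD249+ libraries and was too low to test.

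The balance of the ligands was also read within each library, which needs no scaling between libraries. The log2 ratio of Igf1 to Igf2 counts was 0.90 to 1.69 in CD249- and 1.91 to 2.39 in CD249+ libraries, without overlap. The difference of 0.84 had an exact permutation p = 0.0286 (two-sided), the smallest possible here, and 0.0857 after adjustment over the 3 ratios compared. It did not pass, but a ratio that is alone at this floor cannot pass over 3 ratios. The adjusted value therefore decides nothing about the balance. Per kilobase of exon, Igf1 made up 59.7% ± 5.54 of the summed level of both ligands in CD249- and 72.6% ± 2.89 in CD249+ cells (SD, n = 4).

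Igf1r, the receptor that transmits the signal of both ligands (ENSMUSG00000005533.9, chromosome 7, 67952827 to 68233668, plus strand), was at 45.9, 34.8, 32.4 and 26.9 CPM in CD249- libraries of mice 2, 7, 8 and 10. The CD249+ libraries had 42.2, 35.7, 37.8 and 28.3 CPM. The mice lay further apart than the fractions, and mouse 2 was highest and mouse 10 lowest in both. The log2 fold change was 0.04 (95% confidence interval -0.36 to 0.44, edgeR adjusted p = 0.885), and it turned to -0.047 when libraries were scaled by total count alone. A change of more than 0.44 in either direction lies outside that interval.

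Igf2r, the clearance receptor (ENSMUSG00000023830.13, chromosome 17, 12682406 to 12769664, minus strand), was at 61.7, 41.6, 40.2 and 55.6 CPM in CD249- libraries of mice 2, 7, 8 and 10. In CD249+ cells 80.8, 79.5, 79.9 and 104 CPM were found. All CD249+ libraries were above all CD249- libraries, with mouse 10 highest. Igf2r rose from 49.8 ± 10.6 to 86.2 ± 12.2 CPM (SD, n = 4), with a log2 fold change of 0.79 (SE 0.16, edgeR adjusted p = 0.00457). Within libraries the log2 ratio of Igf1r to Igf2r counts averaged -0.51 ± 0.36 in CD249- and -1.26 ± 0.42 in CD249+ cells (SD, n = 4). It was lower in CD249+ cells of every mouse, but the groups overlapped and the difference of -0.75 did not pass (exact permutation p = 0.0571, 0.0857 after adjustment). Per kilobase, Igf1 stood at 0.735 to 1.84 times the level of Igf1r in CD249- and at 2.90 to 6.36 times in CD249+ libraries.

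Igfbp3, which encodes the main carrier of IGF in the circulation and is also made by stromal cells (ENSMUSG00000020427.11, chromosome 11, 7206086 to 7213923, minus strand), separated the fractions most. Its levels in CD249- libraries of mice 2, 7, 8 and 10 were 49.8, 26.5, 46.6 and 33.7 CPM. The CD249+ libraries had 930.1, 895, 789 and 819 CPM. The CD249+ libraries lay within a narrow band, with a coefficient of variation of 7.61%, against 27.9% in CD249- libraries. The mean went from 39.1 ± 10.9 to 858 ± 65.3 CPM (SD, n = 4), a log2 fold change of 4.46 (SE 0.21, edgeR adjusted p = 1.63e-06), with 4.08 to 5.08 in single mice. For comparison, Enpep itself had a log2 fold change of 4.74 (SE 0.41, edgeR adjusted p = 3.11e-05). The gene next to Igfbp3, Igfbp1, lies 3539 bases away in tail-to-tail orientation and encodes a binding protein of liver, and it had 0 counts in all 8 libraries. At 3 counts that allows up to 0.0899 to 0.125 CPM per library.

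Promoter windows are shown for Igf1, the ligand with the larger rise, for Igfbp3, the binding protein gene with the largest rise, and for Igfbp4, one of the most abundant binding protein genes, whose difference did not pass. They are the 250 bases before the start that RefSeq gives on GRCm38.p6, written 5′ to 3′ on the gene's strand, with capitals for matches on either strand to 4 short words. These are TATAAA and its variant, which reads the same on both strands, TATATA, both typical of TATA boxes, then GGGCGG, the core of a GC box, and finally the CCAAT word of the CCAAT box.
Igf1: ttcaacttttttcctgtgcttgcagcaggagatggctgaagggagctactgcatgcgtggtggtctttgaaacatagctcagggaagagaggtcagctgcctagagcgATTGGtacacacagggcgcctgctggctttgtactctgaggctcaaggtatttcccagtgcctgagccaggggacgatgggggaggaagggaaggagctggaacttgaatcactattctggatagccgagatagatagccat
Igfbp3: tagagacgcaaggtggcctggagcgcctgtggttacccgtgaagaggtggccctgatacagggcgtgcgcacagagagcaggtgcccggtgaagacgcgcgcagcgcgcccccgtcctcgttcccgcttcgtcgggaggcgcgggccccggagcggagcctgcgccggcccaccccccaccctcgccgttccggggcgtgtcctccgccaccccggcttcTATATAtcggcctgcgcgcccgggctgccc
Igfbp4: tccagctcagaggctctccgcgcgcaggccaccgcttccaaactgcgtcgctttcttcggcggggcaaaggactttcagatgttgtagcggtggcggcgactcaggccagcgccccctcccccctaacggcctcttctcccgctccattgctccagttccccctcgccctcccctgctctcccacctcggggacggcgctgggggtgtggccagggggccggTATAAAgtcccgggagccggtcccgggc
The windows are chr10:87860861-87861110 (plus strand), chr11:7213924-7214173 (minus strand) and chr11:99040994-99041243 (plus strand). The Igf1 window belongs to a start inside the annotated gene. Igfbp3 has TATATA from position -30 and Igfbp4 has TATAAA from position -28, counted from the start, so both have a TATA word where TATA boxes usually lie, while Igfbp3 rose 21.9-fold and Igfbp4 did not pass. The Igf1 window has the CCAAT word on the opposite strand at position -142 and none of the other words. Among 32851 RefSeq promoter windows of the same length, 12.4% held TATAAA. The variant TATATA was held by 5.25% of them, while 32.7% held the GC box word and 33.8% held CCAAT. The GC box word was present in at least 1 window of Igf1r, Igf2, Igf2r, Igfbp2 and Igfbp7 and in none of the windows printed here. GC content was 52.8% in the Igf1 window, 73.2% in that of Igfbp3 and 69.2% in that of Igfbp4. All 10 genes had at least 1 entry among 14, and these matches describe letters only.

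Igfbp5, whose product binds IGFs and also extracellular matrix (ENSMUSG00000026185.8, chromosome 1, 72857932 to 72874884, minus strand), was at 86.7, 244, 160.0 and 179 CPM in CD249- libraries of mice 2, 7, 8 and 10. It was at 228, 441, 387 and 396 CPM in CD249+ libraries. The groups overlapped, mouse 7 was high and mouse 2 low in both fractions, and each mouse was higher in its CD249+ fraction, by 0.85 to 1.40 on the log2 scale. Igfbp5 rose from 167 ± 64.7 to 363 ± 92.9 CPM (SD, n = 4), with a log2 fold change of 1.12 (SE 0.30, edgeR adjusted p = 0.0172). In fits with group as the only term the gene no longer passed with mouse 8 left out (1.06, adjusted p = 0.0955). Nor did it with mouse 10 left out (1.11, adjusted p = 0.0752). With mouse as a block and all 8 libraries kept, the log2 fold change was 1.17 (edgeR adjusted p = 3.96e-05).

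Igfbp6, which encodes a binding protein with a preference for IGF2 (ENSMUSG00000023046.6, chromosome 15, 102144362 to 102149511, plus strand), was likewise lowest in mouse 2 and highest in mouse 7 in both fractions. Its levels were 103, 326, 167 and 296 CPM in CD249- and 324, 857, 647 and 627 CPM in CD249+ libraries of mice 2, 7, 8 and 10. The CD249+ library of mouse 2 lay just below the CD249- library of mouse 7, and no other CD249+ library overlapped the CD249- group. Igfbp6 rose from 223 ± 106 to 614 ± 219 CPM (SD, n = 4), with a log2 fold change of 1.46 (SE 0.38, edgeR adjusted p = 0.0160). It no longer passed with mouse 8 left out (1.32, adjusted p = 0.0957), in a fit with group as the only term. With mouse as a block and all 8 libraries kept, the log2 fold change was 1.52 (edgeR adjusted p = 5.10e-05). Mouse 2 was also lowest in the mean log2 CPM of the fibroblast matrix genes, at 8.69 in CD249- and 10.34 in CD249+ libraries against 9.19 to 9.82 and 11.01 to 11.12 in the other mice. The part of that in the spread of Igfbp5 and Igfbp6 was not tested.

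Igfbp7 (ENSMUSG00000036256.13, chromosome 5, 77349240 to 77408041, minus strand), which encodes the weak IGF binder also known from vessels and matrix, was the most abundant member in every library. Levels were 1124, 1456, 996 and 1356 CPM in CD249- and 1396, 1950.2, 1727 and 1869.7 CPM in CD249+ libraries of mice 2, 7, 8 and 10. Each mouse had more in its CD249+ fraction, by 0.31 to 0.79 on the log2 scale, although the groups overlapped. The rise was small and near the threshold, at a log2 fold change of 0.49 (SE 0.16, edgeR adjusted p = 0.0435), and adjusted p = 0.0855 with library size only. In fits with group as the only term, leaving out 1 library or 1 mouse in turn ended the call in 9 of 12 cases. The log2 fold changes there were 0.40 to 0.54 (adjusted p = 0.0576 to 0.194). The call was kept without the CD249- library of mouse 7, the CD249+ library of mouse 2, or both libraries of mouse 2. With mouse as a block and all 8 libraries kept, the log2 fold change was 0.50 (edgeR adjusted p = 0.00295). Polr2b, on the opposite strand, shares 7.03% of the exon length of Igfbp7, whose estimated counts were not whole in any of the 8 libraries, and the libraries do not mark strand.

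Igfbp4, a binding protein that mainly restrains IGF action (ENSMUSG00000017493.12, chromosome 11, 99041244 to 99054392, plus strand), was at 928, 1100.3, 790.2 and 1249 CPM in CD249- libraries of mice 2, 7, 8 and 10. The CD249+ libraries had 804, 1545, 1387 and 1199.9 CPM. The mice did not move together, with mice 7 and 8 higher in the CD249+ fraction by 0.49 and 0.81 on the log2 scale and mice 2 and 10 at -0.21 and -0.06. The log2 fold change was 0.28 (95% confidence interval -0.20 to 0.76, edgeR adjusted p = 0.361). The fits split by red cell genes gave 0.66 in mice 7 and 8 and -0.12 in mice 2 and 10, each on 2 mice, and the difference between them was not tested.

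Igfbp2, a binding protein gene active in fetal tissues and in some epithelia (ENSMUSG00000039323.18, chromosome 1, 72824503 to 72852474, plus strand), was the least abundant member by count. It was at 1.03, 3.05, 1.13 and 13.3 CPM in CD249- and 0.790, 2.62, 1.95 and 4.76 CPM in CD249+ libraries of mice 2, 7, 8 and 10. Both libraries of mouse 10 were the highest of their fraction. Epithelial markers were also highest in mouse 10, with a mean log2 CPM of 4.71 in its CD249- and 6.78 in its CD249+ library against 2.72 to 3.30 and 3.45 to 4.38 in the other mice, and their part in the Igfbp2 values was not tested. The log2 fold change of -0.88 had a wide interval (95% confidence interval -2.78 to 1.02, edgeR adjusted p = 0.475), and it turned to 0.54 when the CD249- library of mouse 10 was left out. Igfbp2 and Igfbp5 are tail-to-tail neighbours with 5457 bases between them. The log2 ratio of Igfbp2 to Igfbp5 counts was lower in CD249+ than in CD249- libraries of every mouse, with a mean difference of -1.49 that did not pass (exact permutation p = 0.0857, 0.0857 after adjustment).

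**Figure D2:**
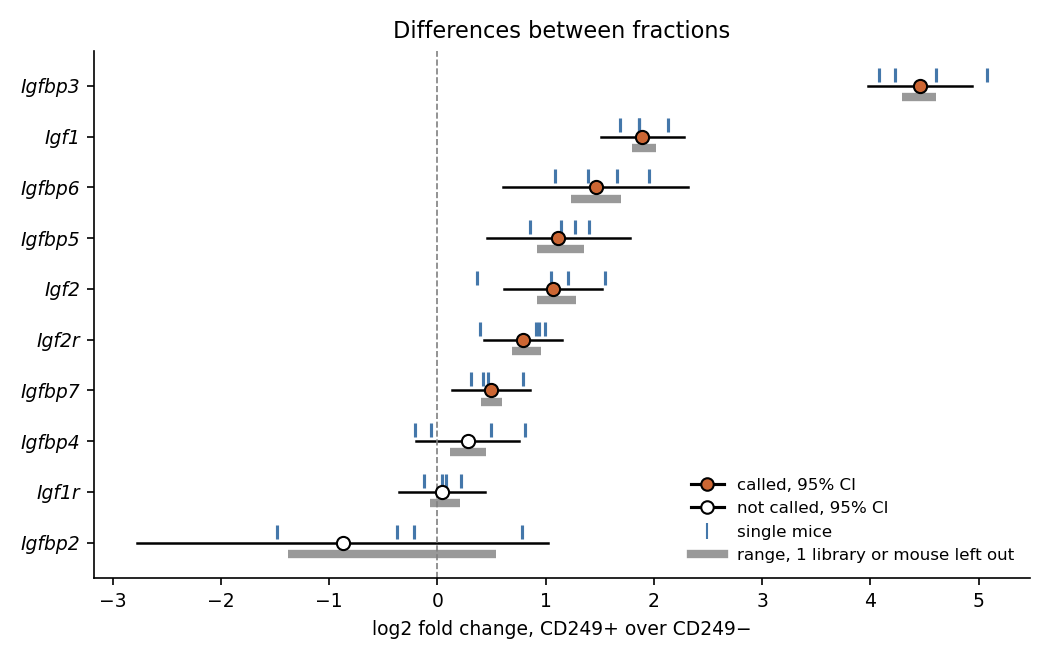
Log2 fold change of each gene (circle, filled where called) with its 95% confidence interval (black), the differences in the 4 single mice (blue ticks) and the range when 1 library or 1 mouse is left out (grey bar). Igfbp3 at 4.46 stands far from the others, Igfbp7 at 0.49 is the smallest called difference, and the intervals of Igfbp4, Igf1r and Igfbp2 include 0.

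Levels of different genes were compared as CPM per kilobase of exon in GENCODE M21, counting every annotated exon, so a gene read mostly from short transcripts is understated. In CD249- cells Igfbp7 led at 1020.1 ± 174 CPM per kilobase, followed by Igfbp4 at 230.3 ± 45.3 and Igfbp6 at 201 (SD, n = 4), the last with a range of 92.4 to 293 that overlapped Igfbp4. Next came Igfbp5 at 27.9 ± 10.8 and Igfbp3 at 12.5 ± 3.49, which also overlapped, and then Igf2r at 5.35 ± 1.13. Igf1, Igfbp2, Igf1r and Igf2 formed a low group between 1.72 and 2.57 whose neighbours overlapped.

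In CD249+ cells several places in the order changed, mostly between genes whose ranges overlapped. Igfbp7 again led, at 1436 ± 202 CPM per kilobase, and Igfbp6 at 552 ± 197 overlapped Igfbp4 at 279 ± 72.3 (SD, n = 4). Igfbp3 reached 274 ± 20.9 and overlapped Igfbp4, while in CD249- cells it stood at 12.5. Igfbp5 followed at 60.4 ± 15.5, Igf1 at 9.54 ± 1.87 overlapped Igf2r at 9.26 ± 1.31, and Igf2, Igf1r and Igfbp2 came last, at 3.61, 2.15 and 1.37.

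The make-up of the binding protein transcripts differed between fractions. Of the summed CPM per kilobase of Igfbp2 to Igfbp7, Igfbp7 made up 68.7% ± 3.59 in CD249- and 55.5% ± 2.97 in CD249+ cells, Igfbp4 15.5% ± 1.32 and 10.6% ± 1.19, and Igfbp6 12.9% ± 4.07 and 20.6% ± 4.23 (SD, n = 4). Igfbp3 made up 0.900% ± 0.411 in CD249- and 10.9% ± 2.83 in CD249+ cells. The ranges of Igfbp7, Igfbp4 and Igfbp3 shares did not overlap between fractions, and those of Igfbp6 did. The sum of the 6 genes was 1196 to 1798 in CD249- and 1964 to 3094 in CD249+ libraries. It was 300 to 403 times the sum of both ligands in CD249- and 171 to 242 times in CD249+ libraries. These shares and sums are descriptions and carry no test.

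**Figure D3:**
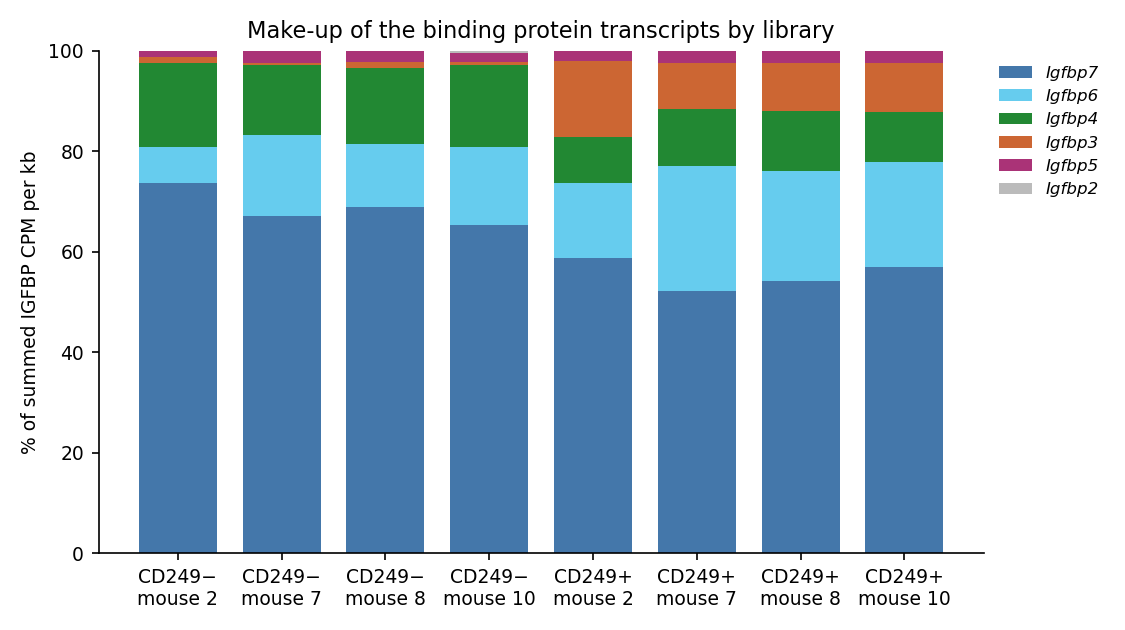
Share of each binding protein gene in the summed CPM per kilobase of Igfbp2 to Igfbp7, 1 bar per library. Igfbp3 makes up 0.900% of CD249- and 10.9% of CD249+ bars on average, and Igfbp7 makes up 65.3 to 73.6% and 52.1 to 58.8%.

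Since matrix genes differed between the fractions, each member was also set against the mean log2 CPM of the 8 fibroblast matrix genes in the same library. This comparison was added after the values were seen and is given without a test. The 8 genes did not move alike, with log2 fold changes from 0.39 for Dcn to 2.66 for Pdgfra. The sign of small differences, such as that of Igf1, therefore depends on the matrix genes chosen. Igfbp3 was higher relative to them in CD249+ cells by 2.92 on the log2 scale, without overlap. Igf1 differed by 0.31, with overlap but higher in all 4 mice, and Igfbp6 by -0.05. Relative to the matrix genes Igf2, Igfbp4 and Igfbp7 were lower in CD249+ cells without overlap, at -0.53, -1.31 and -1.07. Igf1r, Igf2r, Igfbp2 and Igfbp5 differed by -1.52, -0.77, -1.90 and -0.40, with overlap. In this reading 1 gene was higher without overlap, as in 3.0% of all genes tested, 3 were lower without overlap, as in 69.2%, and 6 overlapped. Most genes thus lay lower against the matrix genes in CD249+ cells, where the mean of the matrix list is itself 1.57 higher. Whether Igf2, Igfbp4 and Igfbp7 differ from that background was not tested. The alveolar fibroblast list rose by more than the matrix list, its mean being 3.67 higher in CD249+ libraries. Igfbp3, with a log2 fold change of 4.46, lay within the range of that list's genes, 1.55 to 5.21. It was not set against that list.

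**Figure D4:**
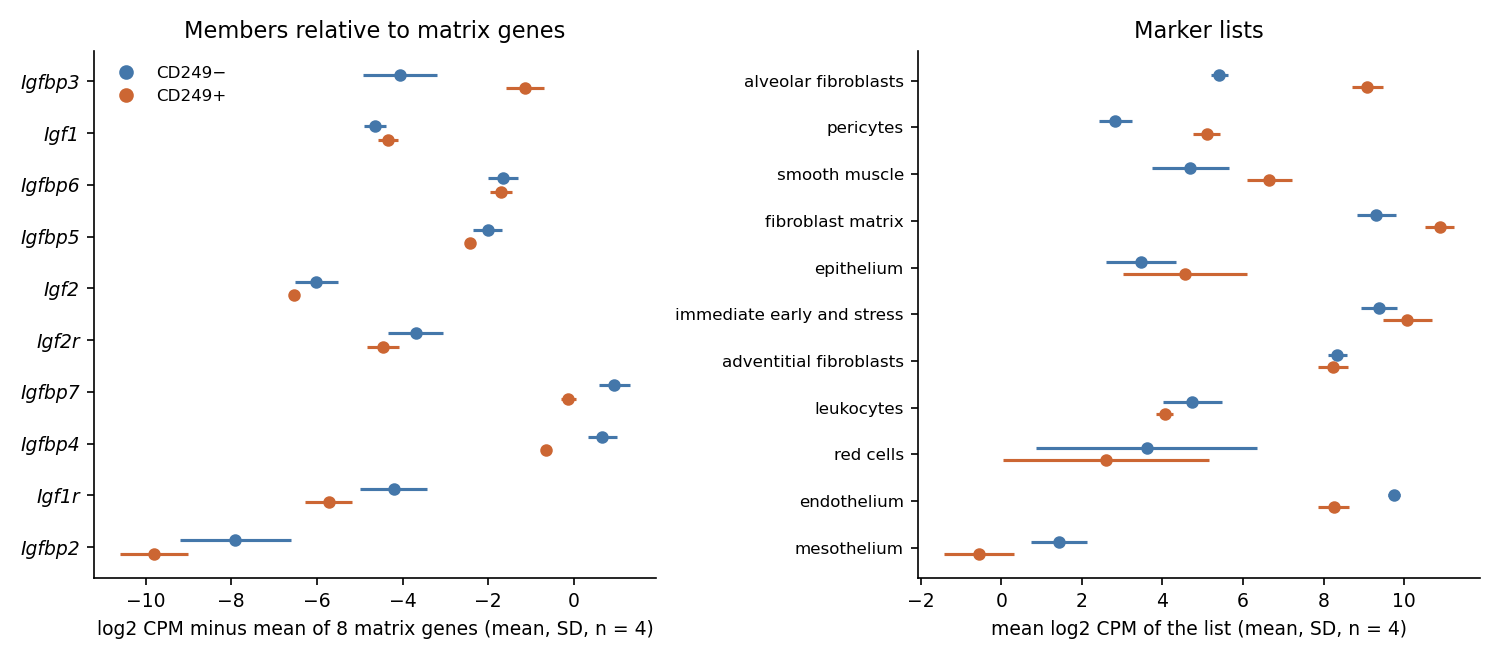
Log2 CPM of each member minus the mean of 8 fibroblast matrix genes in the same library (left) and mean log2 CPM of each marker list (right), where points are means and bars SD of 4 libraries, CD249- in blue and CD249+ in orange. Igfbp3 is the member whose CD249+ point lies to the right of its CD249- point beyond the bars, by 2.92, and the matrix list itself lies 1.57 higher in CD249+ libraries.

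Other genes of the pathway were described from a list of 68 symbols, of which 65 were in the table and 57 were tested. The list also held Pdk1, a gene outside the pathway that is described below, and the counts include it. Of these 23 rose, 8 fell and 26 did not pass, with a median log2 fold change of 0.31, against 16.9% higher and 13.9% lower over all genes tested. The counts by role below stand beside the same shares, and no role was tested against them. Genes were chosen for naming as up to 3 of each role with the smallest p in edgeR's test, so that they stand for the clearest differences of each role and not for the role. Without mouse 8, 14 rose and 4 fell, where 12.2% of all genes were higher and 8.24% lower, 20.4% in all. In mice 7 and 8 alone 20 rose and 5 fell, and in mice 2 and 10 alone 4 rose and 1 fell, beside the lower shares of all genes given above for these mice. Of the IGFBP relatives and carriers, Igfbpl1 had 0 counts in all libraries and Igfals averaged 0.00749 and 0.269 CPM, so neither was tested.

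Proteases that cut binding proteins, with their inhibitors, had 4 of 8 genes higher and 0 lower. Pappa, the metalloprotease that cleaves IGFBP4, was at 2.32, 2.38, 2.04 and 3.36 CPM in CD249- and 10.8, 5.45, 16.1 and 10.5 CPM in CD249+ libraries of mice 2, 7, 8 and 10. It rose without overlap, with a log2 fold change of 2.08 (SE 0.35, adjusted p = 0.00156). Pappa2, its relative that cleaves IGFBP3 and IGFBP5, went from 0.919 ± 0.915 to 10.1 ± 3.62 CPM (SD, n = 4), with a log2 fold change of 3.44 (SE 0.87, adjusted p = 0.0137). It had 0 counts in the CD249- library of mouse 7, gave 5.83 in mice 7 and 8 alone, and no longer passed with mouse 8 left out (3.05, adjusted p = 0.0836). Htra1, a secreted serine protease, rose from 86.8 ± 26.1 to 247 ± 83.2 CPM (SD, n = 4), with a log2 fold change of 1.51 (adjusted p = 0.00261).

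Among related receptors 2 of 4 tested genes rose. Lrp1, an endocytic receptor that binds many ligands including IGFBP3, rose from 374 ± 93.5 to 1318 ± 147 CPM (SD, n = 4), with a log2 fold change of 1.82, and the sorting receptor gene Sorl1 rose by 2.25. The insulin receptor gene Insr had a log2 fold change of -0.19 and did not pass (adjusted p = 0.213). Receptor adaptors and feedback genes went both ways, with 4 of 9 tested genes higher and 3 lower. Grb10, an adaptor that dampens insulin and IGF receptors, rose by 0.89, its relative Grb14 fell by 1.02, and the docking protein gene Gab1 rose by 0.69.

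Of 17 genes listed for the PI3K and AKT pathway downstream of IGF1R 4 rose, 3 fell and 10 did not pass. Over all genes tested 16.9% were higher and 13.9% lower. Pdk1, among those that fell (log2 fold change -0.62), encodes a mitochondrial pyruvate dehydrogenase kinase and lies outside this pathway. The pathway kinase called PDK1 is the product of Pdpk1, also listed, at -0.02 and not called. The catalytic subunit gene Pik3cb fell by 1.01, the kinase gene Akt2 rose by 1.11, and Foxo1, a transcription factor that AKT restrains, fell by 0.55. The growth hormone axis, which drives Igf1 in liver, had 2 of 8 genes higher and 1 lower, beside the same shares of all genes. Socs2, which dampens growth hormone receptor signalling, rose from 46.0 ± 4.61 to 122 ± 23.8 CPM (SD, n = 4), with a log2 fold change of 1.41 (adjusted p = 8.88e-05). Cish, another member of that inhibitor family, fell by 0.99, but no longer passed with mouse 7 or mouse 8 left out (adjusted p = 0.0648 and 0.0574). The transcription factor gene Stat5b rose by 0.34, the smallest called difference named here, and lost its call in 10 of 21 alternative settings. Of the Igf2 mRNA binding and imprinted growth genes 7 of 11 tested rose and 1 fell. Cdkn1c, an imprinted cell cycle inhibitor gene, rose by 1.40 and Peg3 by 1.28, while Mest fell by 1.15.

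**Figure D5:**
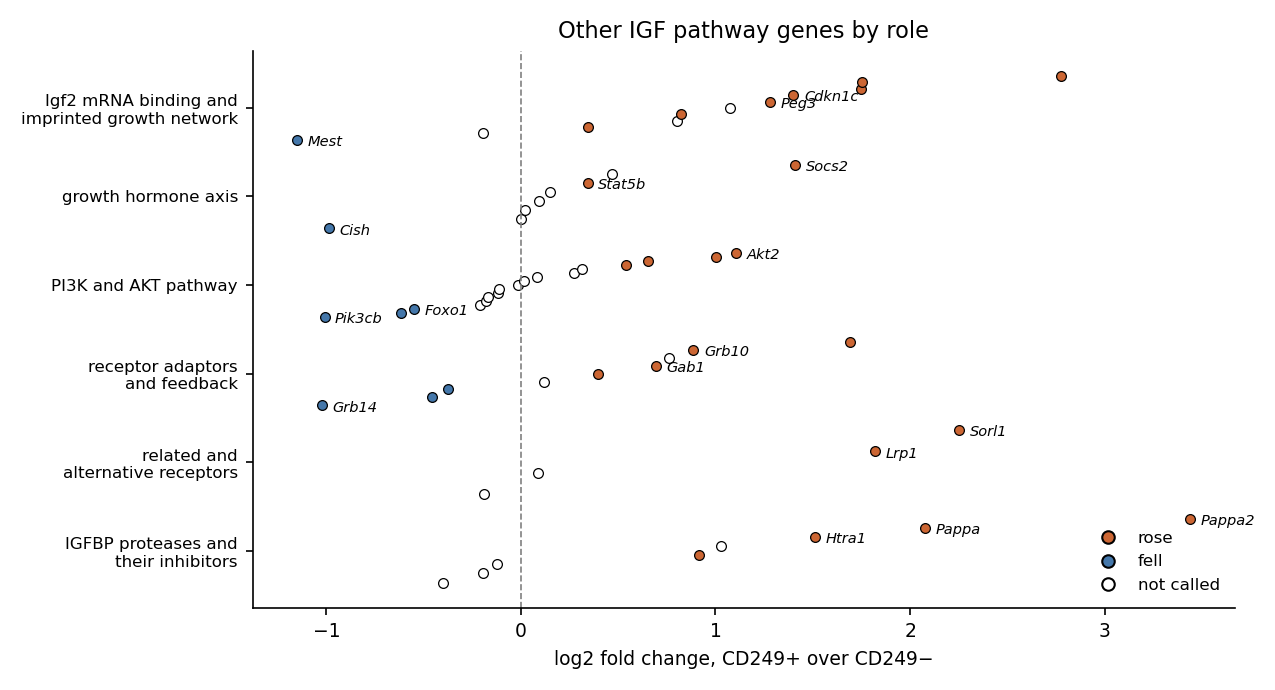
Log2 fold change of the 57 tested genes of the pathway list by role, Pdk1 included. Points are orange where genes rose, blue where they fell and white where not called. Names mark the called genes among the 3 of smallest p in each role. Proteases have 4 genes on the right and none called on the left, while adaptors and PI3K and AKT genes have called genes on both sides.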

How the data were processed

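Cells from 4 mouse lungs gave 8 libraries. Per the labels' protocols, RNA was reverse transcribed from oligo(dT), amplified (SMART-Seq V4), made into Nextera XT libraries and read as single 75 bp reads. The authors deposited estimated counts per gene (expected counts, 12.0% not whole). The submitters' processing notes name STAR 2.6.1, RSEM 1.2.28 and DESeq2 1.26.0, without their roles, and GRCh38, a human build, so the build used for these mouse counts remains not given in the sources used here. The 92 spike-in entries hold 0 counts and were left out.

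Counts were rounded, filtered (filterByExpr), scaled (TMM) and tested with edgeR 4.0.16 in R 4.3.3, with group as the only term. SE and intervals come from that fit. Its calls and fold changes were tried on simulated data in which few genes changed, evenly up and down, and libraries had no mouse effect. The simulation does not cover paired libraries or shifts as broad as those found here. Alternatives were DESeq2 1.42.0, limma-voom 3.58.1, other scalings and filters, mouse as a block, and left-out libraries. Ratios added 0.5 to each count. Coordinates and exon lengths are from GENCODE M21 (GRCm38). The mouse numbers pair the libraries because both fractions came from 1 lung, and deviations from group means correlated at 0.0951 to 0.238 within a mouse and -0.181 to 0.0404 between mice. Reads were amplified and carry no molecular identifiers, so they are not independent molecules. Limits at 3 counts cover counting error only. The named genes were all 10 members, up to 3 genes of each pathway role by p, and Enpep. Neighbouring, overlapping and untested genes were also named. Single marker genes are examples, and a plan to name those of highest mean count was not followed throughout. Pdk1 and Pdpk1 were named only to mark a listing error. Members and lists were chosen with earlier results of these data known.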

Additional observations from a re-analysis of the deposited data

Results flagged for a closer look

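In 3 of 28 groups of 4 values examined, 1 library stood apart from the other 3 by more than Dixon's 95% limit, and chance flags about 5% of such groups. The Igf2 level of the CD249+ library of mouse 2, 13.7 CPM, lay below the other CD249+ libraries at 22.6 to 23.3 CPM. The Igf2r level of the CD249+ library of mouse 10, 104 CPM, lay above the others at 79.5 to 80.8 CPM. For Igfbp2 the CD249- library of mouse 10, at 13.3 CPM, lay above the others at 1.03 to 3.05 CPM.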

How the results depend on the processing

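With the replicate block for mouse, 7 members rose and 0 fell, and the block changed no member's call (5298 genes called in all, 4468 without it). The block gave Igfbp7 a log2 fold change of 0.50 (adjusted p = 0.00295). It was fitted on all 8 libraries, while fits with a library or mouse left out had group as the only term. Over 21 alternatives to each member's test, 181 of 210 values kept their direction and their side of the threshold, and Igf1 and Igfbp3 did so in all 21. Members that rose numbered 4 to 7 when 1 library or 1 mouse was left out (2978 to 4458 genes called), with 4 and 2978 without mouse 8, and 2 in mice 2 and 10 alone (668 genes called). In that subset Igf2, Igf2r, Igfbp5, Igfbp6 and Igfbp7 lost their calls (adjusted p = 0.221, 0.109, 0.176, 0.271 and 0.433). Directions turned only for members that were not called. Igf1r gave -0.047 with library size only, -0.044 in mice 2 and 10 alone and -0.067 to 0.21 with 1 library or mouse left out (below 0 without the CD249- library of mouse 10, the CD249+ library of mouse 2, or mouse 8). Igfbp2 gave -1.38 to 0.54 with 1 left out (above 0 with mouse 10, or its CD249- library, left out) and 0.15 in mice 7 and 8 alone, and Igfbp4 gave -0.12 in mice 2 and 10 alone. The adventitial list mean gave -0.25 to 9.74e-06, the latter without the CD249+ library of mouse 2. Left-out ranges were 0.62 to 0.96 for the log2 ratio of Igf1 to Igf2, -0.93 to -0.55 for Igf1r to Igf2r and -1.90 to -0.78 for Igfbp2 to Igfbp5. Of 378 values for 18 other pathway genes 24 lost their call, and 0 turned direction. Paired by mouse, each of the 3 ratios gave an exact sign-flip p = 0.125, the smallest that 4 pairs allow. The cause of these losses was not tested.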

Other observations

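Among the 10 genes the mouse left its own mark beside the fraction. In CD249+ cells mouse 2 had the lowest level of 7 members (Igf1, Igf2, Igfbp2, Igfbp4, Igfbp5, Igfbp6 and Igfbp7) and the highest of Igf1r and Igfbp3. In CD249- cells it had the lowest level of 4 members and the highest of Igf1r, Igf2r and Igfbp3. Mouse 7 had the highest Igfbp5, Igfbp6 and Igfbp7 in both fractions. These are values of single mice and were not tested.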
